A study of Mus musculus with 4 samples.

Results

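The accessible chromatin of fibro/adipogenic progenitors (FAPs) from young mdx mice treated with trichostatin A (TSA) was set beside that of FAPs from old mdx mice without TSA. All regions that the authors called in these libraries were taken, 80122 in young TSA and 97139 in old control, which are 177261 of the 308012 regions called in the 4 libraries of the series. Each region was placed in a class by position. It was shared if at least 1 bp of it overlapped a region of the other list, and otherwise young TSA only or old control only. The young control list, with 43335 regions, and the old TSA list, with 87416, served to ask where each class was called again.

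All mice were of the C57BL/6 mdx strain, which lacks functional dystrophin and is a model of Duchenne muscular dystrophy. Treated mice, young or old, had TSA at 0.5 mg per kg per day by intraperitoneal injection for 15 days. Control mice had saline by the protocol, although their treatment field reads none. The labels state no age in weeks, no sex and no number of mice for a library. FAPs were sorted from hind limb muscle by surface markers, with 1000000 cells taken for a library. There was 1 library per group, so nothing below has an error between animals and no test between groups was made. Intervals in parentheses are exact Clopper-Pearson intervals at 95%, which count each region as independent and hold no error beyond counting.

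FAPs are mesenchymal cells of the space around muscle fibres. They support repair of the fibres by satellite cells, and in dystrophic muscle they give rise to fibroblasts and fat cells. TSA blocks histone deacetylases, enzymes that remove acetyl groups from histones, and acetylated histones mark open chromatin. In NA-seq, a restriction enzyme is added to intact nuclei and cuts where the DNA is open, so a region can be called only where its site occurs. The labels name NlaIII or HpaII as that enzyme and do not say which was used for which library. HpaII does not cut its site when the inner cytosine is methylated. A region reflects a pool of cells, in which a more open region and one open in more cells cannot be told apart. The lists give positions alone, with no counts or heights, so the depth behind each region is unknown and a region that is not in a list was not called, which does not show that it was closed. The sorted identity could not be checked against marker genes, because the positions are of the build mm9 and no gene annotation of that build was used.

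The young TSA and old control libraries shared most of their wide regions and a smaller part of their narrow ones. Of the young TSA regions, 45375 were shared (56.6%, 56.3 to 57.0%) and 34747 were young TSA only (43.4%). Of the old control regions, 45425 were shared (46.8%, 46.4 to 47.1%) and 51714 were old control only (53.2%). The shared regions covered 88.0 Mb in young TSA and 88.2 Mb in old control. Regions found on one side covered 53.4 Mb in young TSA and 79.7 Mb in old control, so that the longer old control list was longer in regions of its own.

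Few regions lay close to the limit between the classes. Among the shared young TSA regions, 219 overlapped by no more than 100 bp, the step of the coordinates, and 42683 (94.1%) overlapped an old control region by 1000 bp or more. On the other side of the limit, 221 young TSA only regions touched an old control region without overlap, and 4213 (12.1%) lay less than 1 kb from one. Old control only regions stood farther off. Their median distance to the nearest young TSA region was 10.1 kb, against 5.60 kb from young TSA only regions to the nearest old control region. At 50 kb or more from any region of the other list lay 6841 old control only regions (13.2%, 12.9 to 13.5%) and 924 young TSA only regions (2.66%, 2.49 to 2.83%). The young TSA list is the shorter, which by itself lengthens distances to it. How much of the difference that makes up was not tested.

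The widths of the treated young library matched those of the untreated old one more closely than those of its own control. In both lists 1900 bp was the most frequent width, at 31.2% of the young TSA and 32.8% of the old control regions, against 23.3% in the young control. The shortest width, 1000 bp, held 11.1% of young TSA, 11.3% of old control and 14.8% of young control regions. Summed over all widths in steps of 100 bp, 2.47% of regions would have to change width for the young TSA and old control lists to have the same distribution. The corresponding distance was 2.92% between young TSA and old TSA, 2.80% between the old libraries and 16.9% between young TSA and young control. The young control thus stood apart from the other 3 lists in width, and young TSA stood with the old libraries. Young control is also the shortest list, with 43335 regions, and its depth is unknown. Whether its widths go with list length or depth was not tested. At 3000 bp or wider lay 5.66% (5.50 to 5.82%) of young TSA, 4.47% (4.34 to 4.60%) of old control and 2.10% of young control regions.

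**Figure D1:**
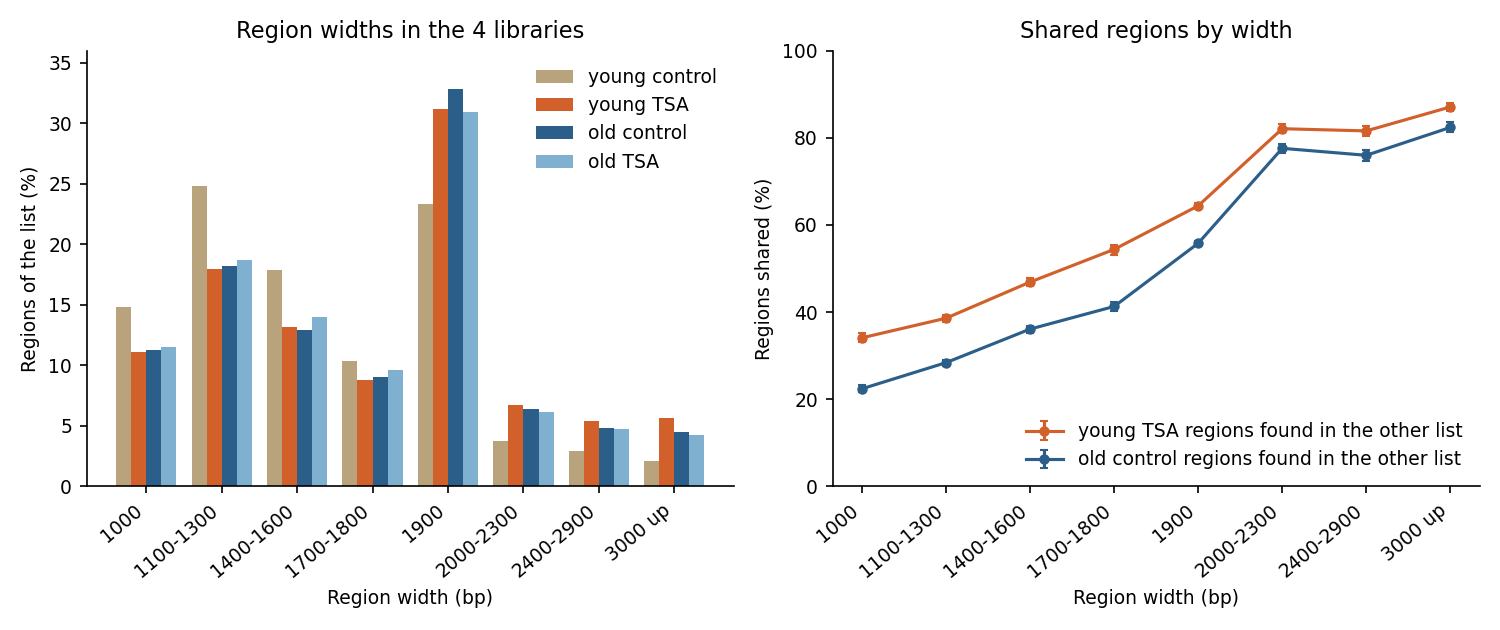
Left, percent of the regions of each library in 8 width classes (bp), 1 bar per library. Right, percent of young TSA regions found in old control and of old control regions found in young TSA by width class, with exact 95% intervals as error bars. Young TSA, old control and old TSA have near-equal bars while young control has more narrow regions, and the shared percent is 34.1 and 22.4 at 1000 bp and 87.1 and 82.4 at 3000 bp or wider.

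Wider regions were shared more often. Of young TSA regions of 1000 bp, 34.1% (33.1 to 35.1%) were found in old control, of those of 1900 bp 64.4% (63.8 to 65.0%), and of those of 3000 bp or wider 87.1% (86.1 to 88.1%). From the old control side the same widths gave 22.4% (21.6 to 23.2%), 55.8% (55.3 to 56.4%) and 82.4% (81.3 to 83.6%). A wider region has more bases in which to overlap, and how much of the rise that makes up was not tested. The median width was 1900 bp in the shared regions of either list, and 1500 bp in young TSA only and in old control only regions. Regions over 1900 bp made up 26.2% of the shared and 6.74% of the young TSA only regions of the young list. In the old list they made up 26.4% of the shared and 6.37% of the old control only regions, so the same contrast was seen from either side.

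Where both libraries had a call, the calls often had the same edges. Of the shared young TSA regions, 43153 (95.1%) were paired with a single old control region that overlapped no other young TSA region. Of these pairs, 10280 (23.8%, 23.4 to 24.2%) had identical start and end, and 7363 of the identical pairs (71.6%) were 1900 bp wide. A further 8802 pairs shared the start alone and an equal number, 8802, the end alone, while 15269 (35.4%) shared neither edge. One region lay wholly inside the other in 82.8% of pairs. The paired regions were wider in young TSA in 14905 cases (34.5%) and wider in old control in 16374 (37.9%), and 11874 (27.5%) had equal width. The mean width was 1911 bp in young TSA and 1921 bp in old control. Identical regions were as frequent between other libraries that had widths of this kind, at 12.8% of the shorter list for young TSA with old control, 13.9% for young TSA with old TSA and 12.8% for the old libraries with each other. Between young control and young TSA they were 10.6% of the shorter list.

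Among the autosomes other than chromosome 18, the 5 longest overlaps of both lists lay on chromosomes 1 and 11. On chromosome 1 a young TSA region from 90122401 to 90151100, 28700 bp wide, overlapped an old control region from 90126101 to 90162300, 36200 bp wide, over 25000 bp. The other 4 lay near one another on chromosome 11. They ran from 3037001 to 3055500, from 3056401 to 3068600, from 3068701 to 3080800 and from 3089001 to 3097800. Their widths were 18500, 12200, 12100 and 8800 bp, and each had the same start and end in both libraries. All 5 were also called in young control and old TSA. In the authors' deposited tables, the 4 regions on chromosome 11 all overlapped the list of regions higher in young control than in young TSA, which 0.101% of all young TSA regions did. Of these 4, 3 overlapped the reverse list as well, as did the region on chromosome 1, where the share of all young TSA regions was 10.3%. The chromosome 1 region and 2 of the 4 also overlapped the list of regions higher in old TSA than in old control (2.02% of all young TSA regions), and the same 2 overlapped the list of the opposite direction (2.10%). Regions of this width lay far outside the common range, and how the authors handled reads with several alignments is not stated in the labels.

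Within the same autosomes, those other than chromosome 18, the 5 widest young TSA only regions each lay a few kb from an old control region. The widest was on chromosome 15 from 79904801 to 79912000 (7200 bp) and was called in old TSA but not in young control. The next lay on chromosome 4 from 62975101 to 62980600 (5500 bp), called in young control and not in old TSA. Those on chromosome 5 from 145925701 to 145931200 (5500 bp) and on chromosome 17 from 12982901 to 12988200 (5300 bp) were called in both remaining libraries. The fifth, on chromosome 8 from 13175401 to 13180600 (5200 bp), was called in old TSA alone of the remaining libraries. Their distances to the nearest old control region ran from 2600 to 6100 bp. Of all young TSA only regions of 3000 bp or wider, 64.4% were called in old TSA and 51.7% in young control.

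The 5 widest old control only regions of the autosomes other than chromosome 18 were all called in old TSA too. Of all old control only regions of 3000 bp or wider, 57.5% were called in old TSA and 19.1% in young control. They lay on chromosome 7 from 109264701 to 109271800 (7100 bp), on chromosome 9 from 119671501 to 119677500 (6000 bp), on chromosome 10 from 76569601 to 76575600 (6000 bp), on chromosome 1 from 191657001 to 191662900 (5900 bp) and on chromosome 13 from 73703401 to 73708600 (5200 bp). The regions on chromosomes 7 and 1 were also called in young control. The first 3 overlapped the authors' deposited list of regions higher in old control than in old TSA. Over all widths, 4.42% of all old control regions and 4.89% of the old control only regions did. The region on chromosome 10 lay 200 bp from a young TSA region, and the other 4 lay 1500 to 16600 bp from one.

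Shared regions were called again in the remaining libraries more often than regions of one list. In old TSA, 72.6% (72.2 to 73.0%) of the shared young TSA regions had a call, against 35.8% (35.3 to 36.3%) of the young TSA only and 28.9% (28.5 to 29.3%) of the old control only regions. In young control the shares were 38.4% (38.0 to 38.9%), 20.3% (19.9 to 20.7%) and 9.30% (9.05 to 9.55%). Both remaining libraries called 14542 of the shared young TSA regions (32.0%), 3422 of the young TSA only (9.85%) and 2275 of the old control only regions (4.40%). Neither called 9540 of the shared (21.0%), 18686 of the young TSA only (53.8%) and 34236 of the old control only regions (66.2%). Over the whole lists, neither called 35.2% of young TSA and 45.1% of old control regions. For old TSA these whole-list shares were 56.6% and 49.3%, for young control 30.6% and 22.9%, and for both 22.4% and 17.3%. The 9540 regions are those in which treated young and untreated old FAPs had a call and both the untreated young and the treated old FAPs had none. Their median width was 1600 bp, and 1800 bp when the same class was read from the old control list, against 1900 bp from either list for shared regions called in both remaining libraries.

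The order of the classes was the same within regions of equal width. Among regions of 1900 bp, old TSA called 76.6% (75.9 to 77.3%) of the shared young TSA, 45.2% (44.2 to 46.2%) of the young TSA only and 38.1% (37.3 to 38.9%) of the old control only regions. Among regions of 1000 bp the values were 47.4% (45.6 to 49.2%), 23.9% (22.8 to 25.0%) and 18.1% (17.3 to 18.9%). Young control called 39.6% of the shared, 29.1% of the young TSA only and 11.1% of the old control only regions of 1900 bp, and 15.8%, 10.5% and 6.52% of those of 1000 bp.

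**Figure D2:**
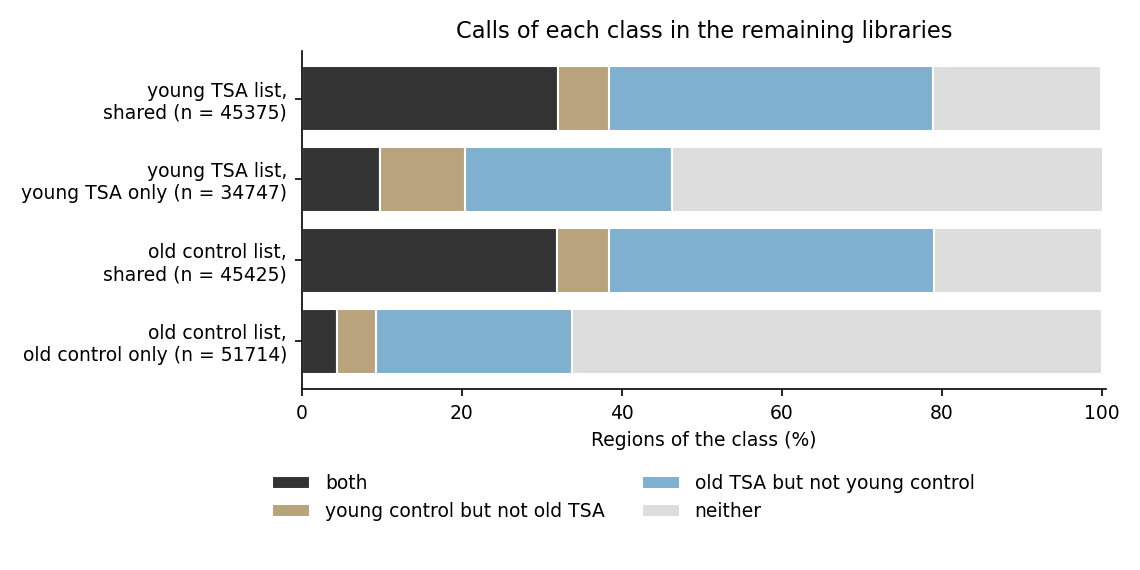
Percent of the regions of each class (rows, with the number of regions) called in both remaining libraries, in young control alone, in old TSA alone or in neither. Shared regions seen from either list have a neither segment of 21.0%, against 53.8% in young TSA only and 66.2% in old control only regions.

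Regions of the treated young library that its own control lacked were found in untreated old FAPs about as often as in treated old FAPs. Of the 55629 young TSA regions with no call in young control, 27936 (50.2%, 49.8 to 50.6%) were found in old control and 27403 (49.3%, 48.8 to 49.7%) in old TSA. The lists differ in length, with 97139 regions in old control and 87416 in old TSA. How far the near-equal shares go with list length was not tested. With all lists thinned to 43335 regions, 25.5% of all young TSA regions were found in old control and 28.6% in old TSA. For those missing from young control, the thinned share in old control was 22.4%, and that in old TSA was not computed. Of the 24493 young TSA regions that young control also had, 71.2% (70.6 to 71.8%) were found in old control and 73.3% (72.8 to 73.9%) in old TSA. At equal width the gap between these groups was narrower but had the same direction in all 8 width classes. At 1900 bp, 60.7% (59.9 to 61.4%) of the regions missing from young control and 71.2% (70.2 to 72.1%) of those in it were found in old control. At 3000 bp or wider the values were 81.3% (79.3 to 83.3%) and 90.0% (88.9 to 91.0%).

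**Figure D3:**
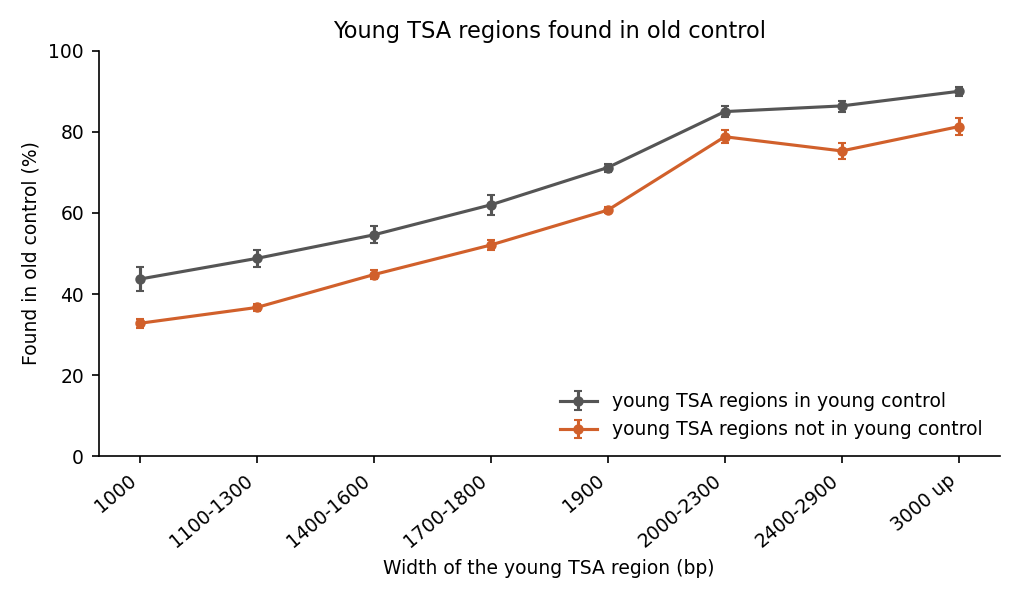
Percent of young TSA regions found in old control, by width of the young TSA region (bp), for regions called and not called in young control, with exact 95% intervals as error bars. The line of regions in young control lies above the other at every width, from 43.7 against 32.8 at 1000 bp to 90.0 against 81.3 at 3000 bp or wider.

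The call in old TSA separated the regions further. Young TSA regions missing from young control were found in old control in 67.1% (66.6 to 67.7%) of cases when old TSA had a call and in 33.8% (33.2 to 34.4%) when it had none. For young TSA regions that young control had, the values were 81.0% (80.4 to 81.5%) and 44.4% (43.2 to 45.6%). Read from the old side, 37.4% (37.0 to 37.7%) of the 74904 old control regions that young control lacked were found in young TSA, as were 42.5% (42.1 to 42.8%) of the 64774 old TSA regions that young control lacked. Of the 43779 old control regions with no call in young control or old TSA, 21.8% (21.4 to 22.2%) were found in young TSA, against 86.4% (85.9 to 87.0%) of the 16778 with a call in both.

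Untreated young FAPs had regions that both other libraries lacked. Of the 43335 young control regions, 17431 (40.2%) had a call in both young TSA and old control and 13726 (31.7%, 31.2 to 32.1%) in neither. A call in young TSA alone of the pair was found for 7287 (16.8%) and in old control alone for 4891 (11.3%). Young control regions that young TSA lacked were found in old control in 26.3% (25.6 to 26.9%) of cases, against 70.5% (69.9 to 71.1%) of those that young TSA kept. The median width was 1300 bp where neither had a call and 1800 bp where both had.

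These overlaps depend on the lengths of the lists. As deposited, the sequence shared by young TSA and old control was 31.6% of the sequence covered in either, between the 34.8% of young TSA with old TSA and the 22.1% of young TSA with young control. Each list was then thinned to 43335 regions, taken at even steps through the list in genome order, so dense stretches stayed dense. The same pairs gave 13.3%, 15.4% and 16.7%, so that young TSA then shared most with its own control. The young control keeps all its regions in this thinning while the others lose many, which lowers their overlaps by construction. Of young TSA regions, 25.5% were found in old control after thinning and 28.6% in old TSA, where the whole lists gave 56.6% for each.

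The authors' list of regions higher in young TSA than in young control fell mainly among the shared regions. Of all young TSA regions 10.3% overlapped that deposited list, with 6516 of the shared regions (14.4%, 14.0 to 14.7%) and 1767 of the young TSA only regions (5.09%, 4.86 to 5.32%). Among regions with no call in young control the shares were 14.7% (14.3 to 15.1%) of the shared and 5.71% (5.44 to 5.99%) of the young TSA only regions, and among regions that young control had, 13.8% (13.3 to 14.3%) and 2.65% (2.29 to 3.05%). By its label the list compares the young libraries and not old control. Young TSA, however, also sets the class, and the same split by another partner list was not made. The shared regions were also wider, with a median of 1900 bp against 1500 bp in young TSA only. A wider region overlaps any list more readily, and these shares were not compared at equal width.

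The deposited lists of the old mice were divided otherwise. Of all old control regions 4.42% overlapped the list of regions higher in old control than in old TSA, with 1762 of the shared (3.88%, 3.70 to 4.06%) and 2530 of the old control only regions (4.89%, 4.71 to 5.08%). The list of regions higher in old TSA than in old control overlapped 2.02% of all young TSA regions, with 721 of the shared (1.59%, 1.48 to 1.71%) and 896 of the young TSA only regions (2.58%, 2.41 to 2.75%). That list was made with old control, which also sets the class, so its lower share among shared regions follows in part from the class. Regions higher in young control than in young TSA were rare, at 0.101% of young TSA and 0.114% of old control regions.

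Along the autosomes both libraries were dense and sparse in the same 1 Mb windows. Over 2412 windows the region counts of young TSA and old control had a Pearson correlation of 0.93 and a Spearman correlation of 0.93, given as a description, since neighbouring windows share gene density, enzyme sites and the sequence to which reads can be aligned. The Pearson value was 0.94 for young TSA with old TSA, 0.96 for the old libraries and 0.92 for the young ones. It was 0.85 for young control with old control, below the value of young TSA with old control, in a list that is also shorter. The median window held 27.0 regions in young TSA and 35.0 in old control. Old control had more regions in 1923 windows, young TSA in 414, and 75 had equal numbers. Scaled by the lengths of the lists, old control had the larger share in 1374 windows and young TSA in 1034.

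The ratio of old control to young TSA regions was highest in the sparse windows. The windows were ranked by their summed regions in young control and old TSA, which do not enter the classes, and divided into 5 groups of equal size. In the sparsest group, with 0 to 22 such regions, young TSA had a mean of 8.14 and old control of 16.2 regions per window, a ratio of old control to young TSA of 1.99. In the next groups the ratio was 1.63, 1.31 and 1.13, and in the densest it was 1.02, with means of 71.8 and 73.0. In regions, old control exceeded young TSA by 3911, 4548, 4000, 2734 and 560 from the sparsest to the densest group, which put 3.55% of the difference in the densest group. Ranked by young control alone, the ratio was 1.99 in the sparsest and 0.984 in the densest group, where old control then had fewer regions. Old TSA, in that ranking, had 13.7 regions per window in the sparsest and 65.7 in the densest group, against 8.74 and 69.5 in young TSA. The ranking was chosen after the counts by window had been seen.

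**Figure D4:**
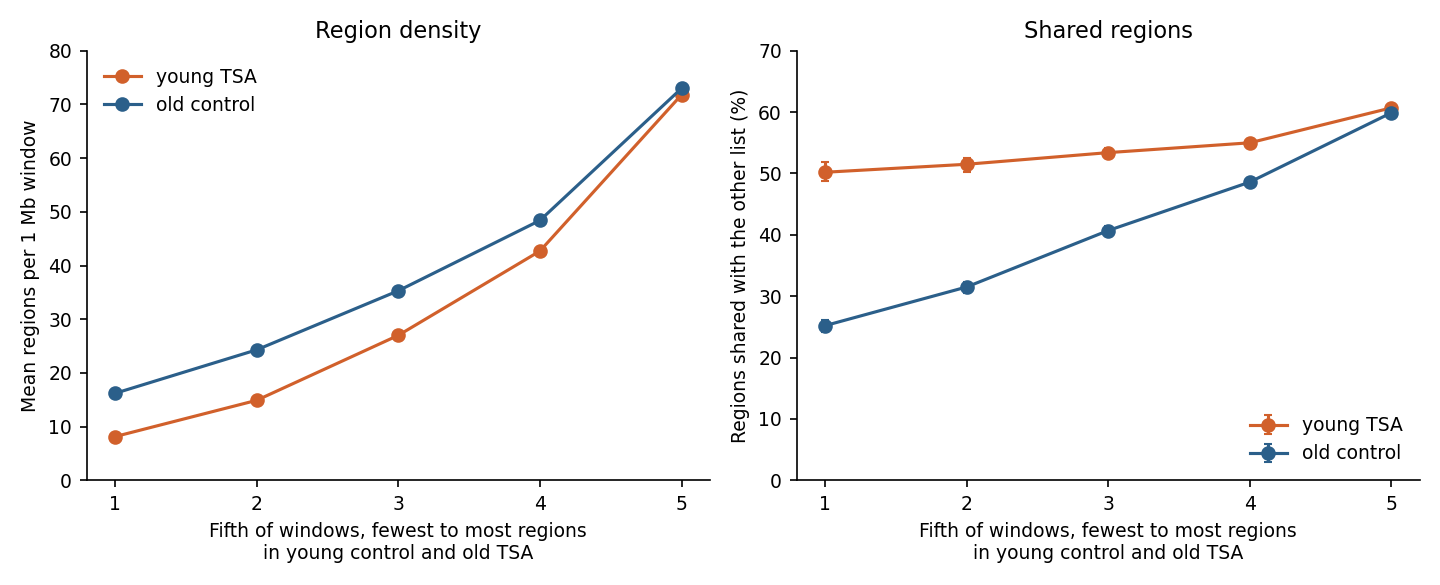
Left, mean number of regions per 1 Mb autosomal window in young TSA and old control, in 5 groups of windows from those with the fewest to those with the most regions in young control and old TSA. Right, percent of the regions of each list shared with the other in the same groups, with exact 95% intervals as error bars. In the sparsest windows the lists have 8.14 and 16.2 regions with 50.2% and 25.2% shared, and in the densest 71.8 and 73.0 regions with 60.7% and 59.9% shared.

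The share found in the other list followed the same gradient on the old side. In the sparsest windows 25.2% (24.2 to 26.2%) of old control regions were shared and in the densest 59.9% (59.4 to 60.4%). The young TSA regions went from 50.2% (48.7 to 51.8%) to 60.7% (60.2 to 61.2%). The numbers of shared regions are nearly the same from either list. Given the young TSA share, the old control share of a group therefore repeats the ratio of counts above. The sparsest group held 11.7% of the autosomal old control only regions and 5.69% of the young TSA only ones, and the densest 28.2% and 39.6%. Ranked by young control alone, old control only regions of the sparsest windows were called in old TSA in 24.2% (23.2 to 25.3%) of cases, against 33.1% (32.3 to 33.9%) in the densest. For young TSA only regions these shares were 30.8% (28.8 to 32.9%) and 37.8% (37.0 to 38.6%). The lists carry no counts, so the depth of the libraries could not be compared over these windows.

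The windows richest in both lists were on chromosomes 10 and 8. Between 80 and 81 Mb of chromosome 10 lay 162 young TSA and 144 old control regions, of which 107 and 112 were shared. The neighbouring window from 79 to 80 Mb held 151 and 131, and the window from 124 to 125 Mb of chromosome 8 held 146 and 123. Young control had 79, 93 and 62 regions in these windows and old TSA 136, 134 and 117. Since young TSA exceeded old control in each of these windows with a shorter list, the young TSA list was the more concentrated in them.

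Young TSA exceeded old control most, as a share of its list, between 120 and 121 Mb of chromosome 11, with 103 against 63 regions. It also did so between 117 and 118 Mb of that chromosome, with 108 against 74, and between 167 and 168 Mb of chromosome 2, with 115 against 85. In these windows old TSA had 89, 82 and 86 regions, in each case more than old control and fewer than young TSA. The windows were picked for the difference between those lists, a choice that favours a place between them for any further library. By the same measure, the share of each list, old control exceeded young TSA most between 171 and 172 Mb of chromosome 2, with 69 against 32 regions. The others were the window from 128 to 129 Mb of chromosome 1, with 69 against 33, and that from 12 to 13 Mb of chromosome 16, with 59 against 25. On chromosome 16, 22 of the 25 young TSA regions were shared, and 23 of the 59 old control regions were. Young control had 9, 16 and 5 regions in these 3 windows and old TSA 54, 45 and 49.

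Read in genome order, the merged regions of both lists numbered 130744. Of these 34.2% were shared, 26.4% young TSA only and 39.4% old control only. Runs of 5 or more neighbours of 1 class numbered 655 for shared, 186 for young TSA only and 1252 for old control only regions on the autosomes other than chromosome 18. The longest run of old control only regions had 22 members on chromosome 9 from 16114501 to 16911600, over 797 kb, in which old TSA had 9 and young control 7 regions. The longest run of shared regions had 13 members within 84.1 kb of chromosome 4, from 153544301 to 153628400. The longest of young TSA only regions had 10, on chromosome 2 from 121185201 to 121375400, and 1 further run elsewhere was as long. Long stretches with calls in old control and none in young TSA were thus more frequent than the reverse, in a list that is also longer.

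All 19 autosomes held more regions in old control than in young TSA. The ratio of old control to young TSA ran from 1.03 on chromosome 11 and 1.07 on chromosome 19 to 1.30 on chromosome 14 and 1.32 on chromosome 3, with a median of 1.20. Chromosome 11 had 41.9 young TSA and 43.0 old control regions per Mb of the span called, and chromosome 14 had 25.6 and 33.3, the lowest autosomal value in either list. Of the young TSA regions, between 52.0% (chromosome 19) and 59.8% (chromosome 8) were shared. Of the old control regions, between 42.0% (chromosome 3) and 52.3% (chromosome 11) were shared. On chromosome 11 the counts of both lists were close, and so were the shares, at 53.3% (51.9 to 54.7%) and 52.3% (50.9 to 53.7%). Across the 19 autosomes the densities of both lists had a Pearson and a Spearman correlation of 0.92, against 0.97 for young TSA with old TSA and 0.95 and 0.93 for the young libraries, as a description of chromosomes that share their sequence.

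**Figure D5:**
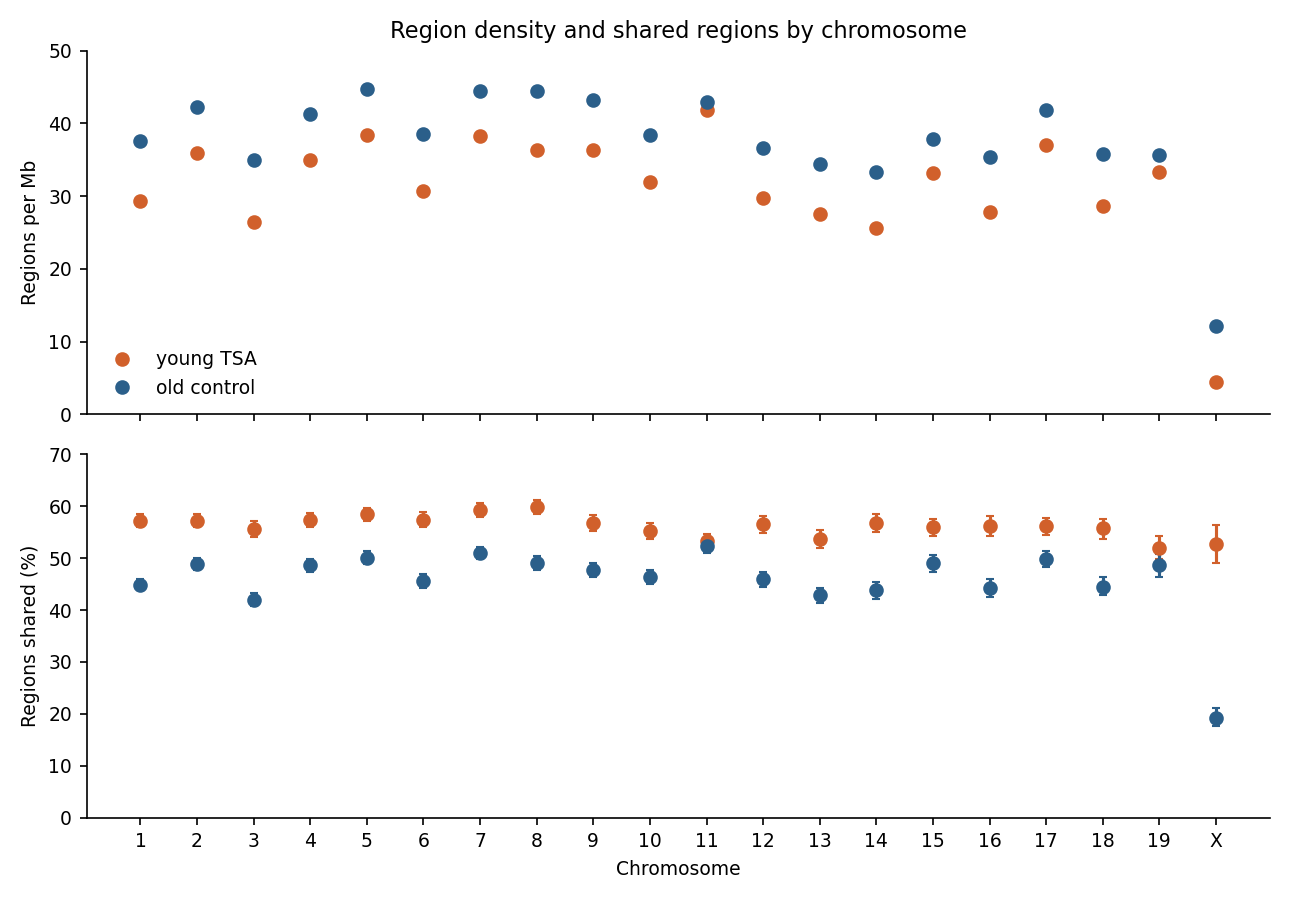
Regions per Mb (top) and percent of regions shared with the other list (bottom, with exact 95% intervals as error bars) for young TSA and old control on each autosome and the X chromosome. Old control is denser on every chromosome shown, by least on chromosome 11, and the X chromosome has the lowest density in both lists and the lowest shared percent in old control, 19.3.

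The X chromosome was the clearest departure from the pattern of the autosomes. It held 727 young TSA and 1991 old control regions, a ratio of 2.74, with 4.45 and 12.2 regions per Mb. Young control had 412 regions there and old TSA 1510, in lists of 43335 and 87416 regions, so both young libraries were low and both old ones high. Of the young TSA regions there, 52.7% (49.0 to 56.4%) were shared, near the 56.7% of all autosomal regions. Of the old control regions there, 19.3% (17.6 to 21.1%) were shared, against 47.3% (47.0 to 47.6%) on the autosomes and 25.2% in the sparsest autosomal windows. The shared regions there numbered 383 from the young TSA list and 384 from the old control list. Given the young TSA share, the low old control share thus repeats the ratio of the counts. The X chromosome therefore held 0.845% of the shared old control regions and 3.11% (2.96 to 3.26%) of the old control only ones. Of the 1607 old control only regions on it, 386 (24.0%, 21.9 to 26.2%) were called in old TSA and 68 (4.23%, 3.30 to 5.33%) in young control. The labels do not give the sex of the mice. The Y chromosome held 18 young TSA and 17 old control regions, with 17 in young control and 15 in old TSA. The mitochondrial genome held 2 young TSA and 3 old control regions.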

How the data were processed

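The processed NA-seq regions of 1 library per group were used. Bowtie 0.12.7 and mm9 are named in the submitters' processing notes. The notes and labels used here state no region caller, no threshold and no test for the differential lists. The authors deposited 8 lists (4 of called regions, 4 of regions differing with TSA), which hold positions and nothing else: chromosome, start and end in bp, in steps of 100 bp, without counts or scores. Starts printed here count from 1. Overlaps, from 1 bp, were computed in Python 3.11.15 with pandas 2.3.3 and numpy 2.4.6, intervals in scipy 1.17.1, and plots in matplotlib 3.10.9. Windows of 1 Mb took a region by its midpoint, and those without a call in any library were left out. The code gave the known answer in all 9 test cases. The brute-force cases used part of 1 chromosome in young TSA and old control, and the others used the 97139 old control regions. No gene or sequence is reported, since no mm9 genome was used.

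The comparison, its classes and the alternatives were chosen with earlier results of these data known. Regions named are the 5 longest overlaps and the 5 widest of each other class (autosomes other than 18), the 3 windows with the highest summed share of both lists and the 3 with the largest difference each way, and the longest run of each class.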

Additional observations from a re-analysis of the deposited data

How the results depend on the processing

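Of young TSA regions, 56.6% were found in old control, 50.4% with an overlap of 50% of both regions, 59.6% with gaps up to 500 bp, 55.8% when every list, the partners too, kept only regions at or above its median width, 25.5% with lists thinned evenly to 43335 regions and 57.8% with regions closer than 1 kb merged. In the same order of settings, the share of old control regions found in young TSA was 41.6%, 49.3%, 46.4%, 25.4% and 47.3%, and 47.3% on autosomes. The share of young TSA regions missing from young control that old control had was 45.0%, 53.1%, 50.8%, 22.4% and 50.8%. The share of shared regions called in old TSA was 69.1%, 74.2%, 73.1%, 37.5% and 73.6%. Thinning removes partners, so it lowers overlaps by construction. The Pearson correlation by window was 0.78 in 100 kb and 0.96 in 5 Mb windows, 0.94 with all chromosomes and 0.91 with regions at or above the median width. Chosen after seeing the data, the ratio of old control to young TSA in the sparsest windows was 1.93 when ranked by old TSA alone and 2.36 for regions at or above the median width. In the densest windows it was 0.984 when ranked by young control alone. No paired analysis was possible because each group has 1 library, which also leaves no library to omit. Depth is unknown, so absence from a list is no measure of closed chromatin.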
